A study of Homo sapiens with 10 samples.

Results

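The position of KAP1 relative to RNA polymerase II (Pol II) was measured at 6005 isolated promoters, out of 19229 protein-coding promoters on chromosomes 1 to 22. An isolated promoter is the annotated start of a protein-coding gene with no start of any other gene within 3 kb. There were 11102 of these, and the 6005 were those with both a Pol II peak and a KAP1 peak overlapping the start plus or minus 1 kb. Among all 19229 coding promoters 71.8% had a Pol II peak and 66.2% a KAP1 peak. Of the other isolated promoters, 802 had Pol II only, 398 had KAP1 only and 3897 had neither. Both libraries come from HCT116, an established colorectal carcinoma line, with no treatment named in the labels, in chromatin crosslinked with 1% formaldehyde for 10 min and sheared to fragments of 100 to 300 bp. The Pol II antibody is N-20, which binds total Pol II, and the KAP1 antibody is ab22553. The series has 10 libraries, 1 per antibody or input, of which the peak lists of 5 were used, so every value below describes single libraries and has no replicate check. The labels call the cells endothelial. Pol II peaks lay at 9 of 12 colon epithelial marker genes (EPCAM, CDH1, CDX1, CDX2, CLDN4, CLDN7, KRT8, KRT18 and KRT19). The intestinal markers VIL1, CDH17 and LGALS4 had none. Of the 9 endothelial ones found in the annotation, 3 had a Pol II peak (CLDN5, ERG and ESAM), and CDH5, KDR, VWF, TEK, TIE1 and EMCN had none.

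KAP1, the protein made from TRIM28, is a chromatin-bound cofactor best known as the corepressor of KRAB zinc finger proteins. It also binds the 7SK ribonucleoprotein, which contains Larp7 and Hexim1 and holds the elongation kinase P-TEFb (Cdk9 with a cyclin T) inactive. At many human promoters Pol II starts transcription and then pauses a short way into the gene until P-TEFb releases it. The question here is whether KAP1 lies before, on or beyond that accumulation of Pol II. All distances run along the direction of transcription from the gene start, so that positive values lie inside the gene. The summit is the base where the authors' peak caller placed the highest Pol II signal. A KAP1 peak has edges but no summit in the deposited list, so its middle stands for its position.

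The sequences at 2 promoters show what these positions look like on the genome (hg19). Among promoters with exactly 1 peak of each factor and a −log10 q of at least 5 for both, ACSL3 has the highest KAP1 fold and PLEKHN1 the KAP1 middle that lies farthest upstream of the summit. That middle lies 3263.5 bp before the PLEKHN1 start, past the 3 kb kept free of other gene starts. Fold here means the ratio of peak to background signal that the authors deposited with each peak. In each start sequence the first 30 transcribed bases are in capitals, and in the others the capital marks the summit base or the base at the KAP1 middle.
ACSL3 start, chr2:223725600-223725689, plus strand: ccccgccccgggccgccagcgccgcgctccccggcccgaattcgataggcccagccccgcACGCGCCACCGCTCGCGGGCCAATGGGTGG
ACSL3 Pol II summit, chr2:223725787-223725816, plus strand: tgcagttgtctacgcGgccggggccgggac
ACSL3 KAP1 middle, chr2:223725894-223725923, plus strand: ggcggcgcggggcgtGaacgctctggggct
PLEKHN1 start, chr1:901802-901891, plus strand: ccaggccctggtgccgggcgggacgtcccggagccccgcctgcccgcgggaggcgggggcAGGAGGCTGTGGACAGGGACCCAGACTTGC
PLEKHN1 Pol II summit, chr1:902295-902324, plus strand: ccccggtaggtgaggAgccgacgctgactg
PLEKHN1 KAP1 middle, chr1:898583-898612, plus strand: ggcccgggtgggagtGgctgcggtggggaa
The start sequences of ACSL3 and PLEKHN1 hold 15 and 8 CG dinucleotides in 90 bases.

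Pol II summits were most frequent just inside the genes, with a wide spread around that zone. Their median distance from the gene start was 113 bp (exact binomial 95% interval of the median 109 to 117), with quartiles of 40.0 and 329 bp, and 38.8% of them fell 0 to 150 bp past the start. A summit lay upstream of the start at 1161 promoters (19.3%) and more than 1 kb away at 278. KAP1 peaks were centred farther into the gene and were less tightly placed. The KAP1 middle had a median of 258.5 bp (251 to 267) with quartiles of 88.0 and 484 bp, and only 16.6% of the middles fell in the first 150 bp. The typical KAP1 peak began 143 bp upstream of the start and ended 678 bp downstream of it, by the medians of its edges. The upstream edge had quartiles of 417 bp upstream and 38.0 bp downstream of the start, and the downstream edge had quartiles of 426 and 1099 bp. With a median width of 862 bp (quartiles 522 and 1373 bp), the KAP1 peak covered the gene start at 66.4% of promoters, lay wholly inside the gene at 30.7% and wholly upstream of the start at 2.91%.

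**Figure D1:**
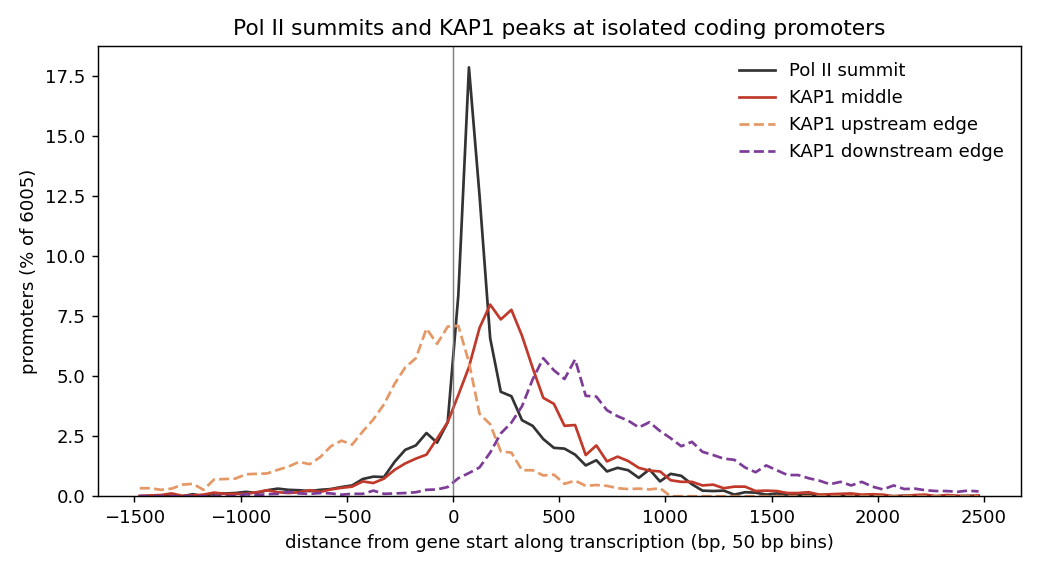
Share of the 6005 promoters (%, in bins of 50 bp) by distance from the gene start (bp along transcription) of the Pol II summit, the KAP1 middle and both KAP1 edges. The Pol II curve has the sharper maximum and a median of 113 bp, and the KAP1 middle is broader and farther downstream with a median of 258.5 bp.

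Within single promoters the KAP1 peak nearly always covered the Pol II summit, and its middle was displaced downstream of it. The KAP1 peak contained the summit at 5602 of the 6005 promoters (93.3%, Clopper-Pearson 95% interval 92.6 to 93.9), lay wholly downstream of it at 286 (4.76%) and wholly upstream at 117 (1.95%). Among all 12168 autosomal coding promoters with both peaks, which include these, the share that contained the summit was 92.6%. The KAP1 middle minus the summit had a median of 90.5 bp (83.0 to 98). Its quartiles were 64.0 bp upstream and 264 bp downstream, so the spread among promoters was larger than the median offset. The middle lay upstream of the summit at 2020 promoters (33.6%, 32.4 to 34.8) and downstream of it at 3977 (66.2%), against 37.1% upstream and 62.8% downstream over all 12168. It was within 100 bp of the summit at 30.6% of promoters and within 250 bp at 62.2%. From the summit, the KAP1 peak reached a median of 284 bp upstream and 488 bp downstream. In peaks that contained the summit, the summit therefore sat at 0.37 of the way from the upstream to the downstream edge. These intervals cover counting error only and treat promoters as independent.

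Part of the offset lay within the Pol II peak itself. The middle of the Pol II peak was 21.5 bp downstream of its own summit in the median, and the median distance between the middles of the KAP1 and Pol II peaks was 36.0 bp (32.5 to 39.5), with KAP1 downstream. The Pol II peaks had a median width of 791 bp. KAP1 peaks began 62.0 bp inside the upstream edge of the Pol II peak in the median, and reached farther upstream than Pol II at 32.4% of promoters and farther downstream at 42.8%. The whole KAP1 peak lay within the Pol II peak at 2616 promoters (43.6%), and the whole Pol II peak within the KAP1 peak at 1137 (18.9%).

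The direction of the offset followed the direction of the gene. In chromosome coordinates the KAP1 middle lay 95.5 bp above the summit at the 3078 genes on the plus strand, and 86.5 bp below it at the 2927 genes on the minus strand, both medians. The upstream share was 33.2% on the plus strand (31.6 to 34.9) and 34.1% on the minus strand (32.3 to 35.8). Over the 22 chromosomes the median offset was downstream on each, from 55.5 bp on chromosome 21, which has 58 of the promoters, to 131.25 bp on chromosome 14.

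At Pol II peaks inside genes, away from any start, the displacement was much smaller. Of 57319 Pol II peaks with a summit more than 3 kb from every gene start, 31027 overlapped a KAP1 peak, and 22735 of these lay in coding genes of a single orientation. There the KAP1 middle was 3 bp downstream of the summit in the median (0 to 6.50), with quartiles of 236 bp upstream and 254.5 bp downstream, and upstream of it in 49.3% of cases (48.6 to 49.9). The share of summits inside the KAP1 peak was 92.6%. It is not compared with the share at promoters, because inside genes only KAP1 peaks that overlap the Pol II peak were taken. At promoters the KAP1 peak had to overlap the window around the start instead. With KAP1 peaks of 200 to 400 bp in both groups, the median offset was 35.0 bp at 755 promoters (27.0 to 44) and 2 bp inside genes (-1 to 4.50). For widths of 400 to 800 bp it was 88.5 bp at promoters (78.0 to 99.0) and 1 bp inside genes (-13.5 to 15). For widths of 800 to 1600 bp it was 138.5 bp at promoters (122 to 156) and 24.25 bp inside genes (4 to 44.5). The intervals inside genes treat Pol II peaks as independent, although 1 KAP1 peak could serve several of them. The Pol II peaks inside genes were weaker and narrower, with a median fold of 7.14 against 37.2 at the promoters and a median width of 320 against 791 bp, and the part of these differences in the offset was not tested.

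**Figure D2:**
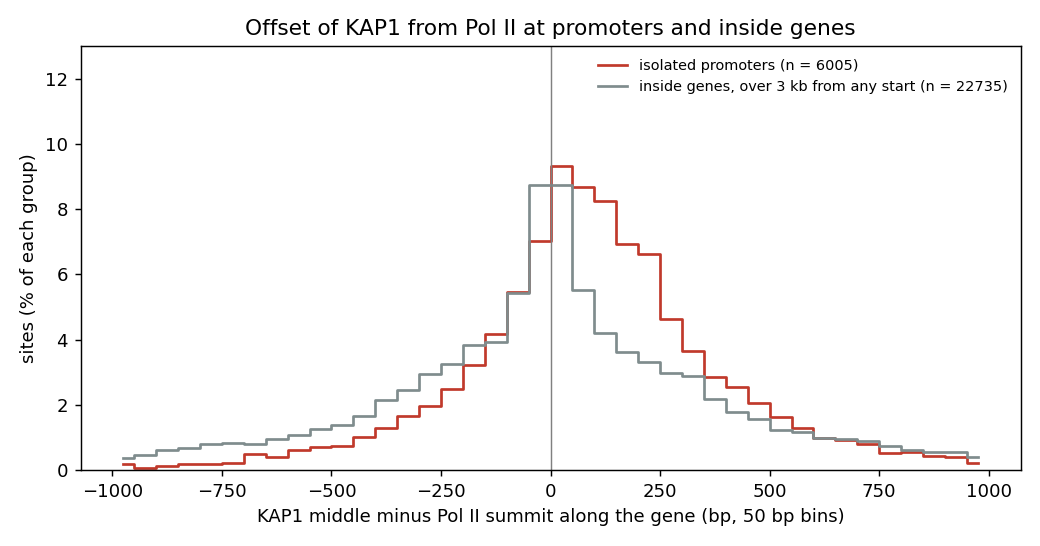
KAP1 middle minus Pol II summit along the gene (bp, bins of 50 bp), as a share (%) of the 6005 isolated promoters and of the 22735 Pol II peaks inside coding genes. The promoter curve is shifted to positive values with a median of 90.5 bp, and the curve inside genes is centred near 0 with a median of 3 bp.

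KAP1 peaks moved with the Pol II summit, but less than base for base. At the 369 promoters with the summit 200 to 500 bp upstream of the start, the KAP1 peak ran from 563 bp upstream to 660 bp downstream by its median edges, and its middle was at 18.5 bp. At the 1072 promoters with the summit at 50 to 100 bp, the KAP1 middle was at 198.5 bp and the offset was 122.5 bp. For summits at 200 to 500 bp the middle was at 325.5 bp and the offset was 14.5 bp. At the 738 promoters with the summit at 500 to 1000 bp, the KAP1 peak started 118 bp inside the gene and the middle lay 46.75 bp upstream of the summit. The summit enters both the bins and the offset, so a falling offset over these bins is partly built in. Across the 6005 promoters the distances of the summit and the KAP1 middle from the start had a Pearson r of 0.45 and a Spearman rho of 0.50. Restricted to the 4039 promoters with the summit within 300 bp of the start, rho was 0.21 for the middle, 0.33 for the upstream edge and 0.048 for the downstream edge. At the 4228 promoters with exactly 1 peak of each factor, the downstream edges of the KAP1 and Pol II peaks had a rho of 0.80 and the upstream edges 0.71. These correlations are across promoters, which are not replicates, and both peaks share the annotated start.

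**Figure D3:**
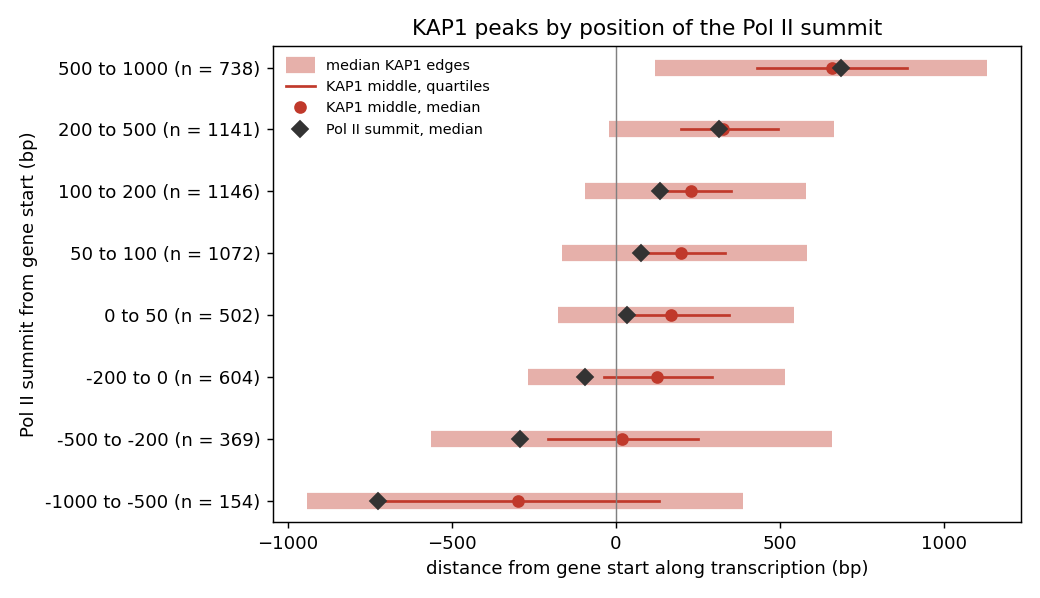
Median KAP1 edges (bars), KAP1 middle (circle, with its quartiles as a line) and median Pol II summit (diamond) by position of the Pol II summit, in bp from the gene start. The KAP1 middle lies downstream of the summit in the 7 lower bins and 46.75 bp upstream of it in the highest.

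By their median edges, wider KAP1 peaks reached farther from the start on both sides, and more so downstream. In the quintile of promoters with the narrowest KAP1 peaks (median width 309 bp), the peak ran from 37.0 to 353 bp past the start and the offset was 33.0 bp, with quartiles of 22 bp upstream and 102.5 bp downstream. In the quintile with the widest peaks (median 2079 bp), it ran from 605 bp upstream to 1516 bp downstream and the offset was 247 bp. The median Pol II summit was at 120 bp in the first of these groups and 108 bp in the second, and the upstream share was 33.1% and 34.7%. A peak that contains the summit can have a larger offset when it is wider, so a rise with width is partly built in. The offset also rose with the deposited fold of Pol II. From the lowest to the highest quintile of Pol II fold, the summit was at 191, 133, 107, 103 and 101 bp and the offset was 44.5, 83.5, 98.5, 100.0 and 108 bp. By KAP1 fold the upstream share was 40.7% in the lowest quintile and 25.1% in the highest.

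Base composition went with how far both peaks lay from the start. Over 500 bp on each side of the start, the members had a median GC content of 63.9%. In the quintile with the lowest GC content (median 54.8%), the Pol II summit was at 292 bp and the KAP1 peak ran from 111 to 649 bp, entirely past the start by its median edges. In the highest quintile (73.7%) the summit was at 73.0 bp and the KAP1 peak ran from 500 bp upstream to 878 bp downstream, with median widths of 502 and 1458 bp in these groups. The motif TATAAA, read on the gene's strand, lay in the 50 bases before the start at 119 members (1.98%) and at 3.42% of all 19229 coding promoters. With it the offset was 103 bp and without it 90.5 bp, each with an upstream share of 33.6%.

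KAP1 middles lay more often in the first intron than Pol II summits did. By the canonical transcript of each gene, 31.5% of KAP1 middles and 16.4% of summits were in the first intron, and 20.8% and 34.9% were in the 5′ untranslated part of an exon. Coding exons held 18.9% of KAP1 middles and 18.4% of summits. The summit came before the end of the first canonical exon at 81.2% of promoters and the KAP1 middle at 64.6%, and the downstream edge of KAP1 passed that end at 78.4%.

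A second Pol II peak in the window went with a wider KAP1 peak. At the 1394 promoters with exactly 2 Pol II peaks the KAP1 peak had a median width of 1182.5 bp, against 862 bp over all members, and it contained both summits at 810 (58.1%). The summits lay on opposite sides of the start at 781 of these promoters, at medians of 443 bp upstream and 299 bp downstream. The KAP1 middle was then at 234.5 bp, nearer to the downstream summit at 574 of 781 (73.5%, 70.3 to 76.6), and the downstream summit had the higher fold at 538 (68.9%). Over all 6005 members the KAP1 middle lay upstream of the start at only 997 (16.6%). The 73.5% is therefore not read as a preference for the downstream summit. At the 532 promoters with both summits past the start, at 109 and 870.5 bp, the KAP1 middle lay between them at 374 (70.3%) and was nearer to the downstream one at 225 (42.3%).

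The broad peaks of Larp7, Hexim1 and Cdk9 were also centred downstream of the summit, with the KAP1 middle slightly farther into the gene. At the 5868 promoters with all 5 factors the middle minus the summit had a median of 93.0 bp for KAP1, 76.0 bp for Cdk9, 72.0 bp for Larp7 and 54.0 bp for Hexim1. Pair by pair, the KAP1 middle lay 12.5 bp past that of Cdk9 (10.5 to 16), 9 bp past Larp7 (5.50 to 11.5) and 19.0 bp past Hexim1 (16 to 23), and it was the more downstream at 55.5%, 53.4% and 56.7% of promoters. The other broad peaks also reached farther on both sides by their median edges. KAP1 began 147 bp upstream of the start, against 223 bp for Cdk9, 329 bp for Larp7 and 474 bp for Hexim1, while the downstream edges were at 684.5, 729, 871 and 979 bp. Median widths were 877, 1004, 1316 and 1588 bp in the same order. With 20000 peaks per list, where 1513 promoters kept all 5, KAP1 began 172 bp upstream of the start and the others 233, 315 and 491 bp. KAP1 then ended 793 bp past the start and the others 804, 885 and 1027 bp, in the same order. The number of peaks, the depth and the deposited q of the lists differ, and their part in the edges was not tested.

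**Figure D4:**
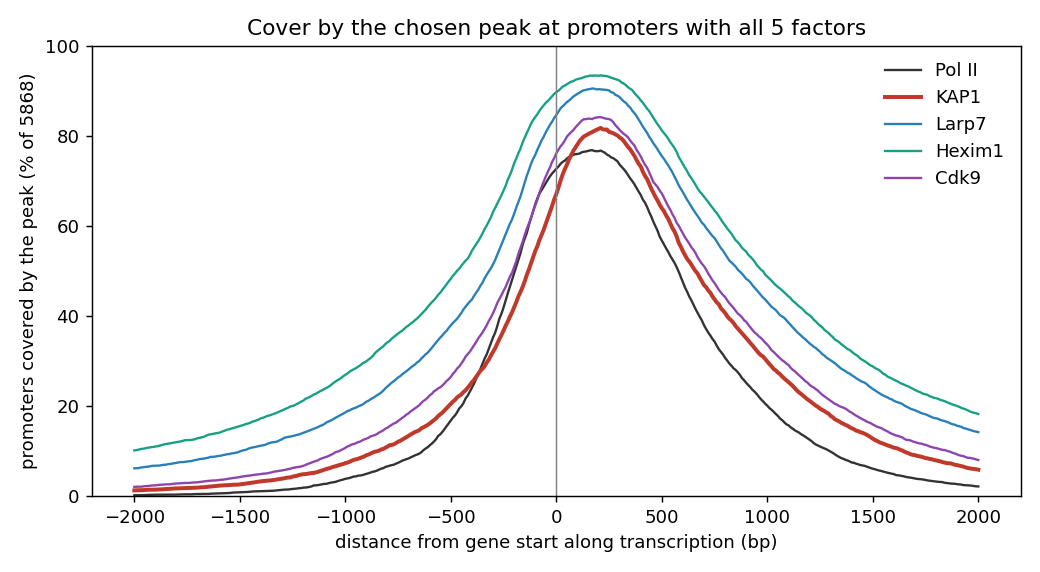
Share (%) of the 5868 promoters with all 5 factors whose chosen peak covers each position (bp from the gene start). KAP1 is highest at 210 bp, where it covers 81.8%, and stays at or above 50% from 130 bp upstream to 650 bp downstream, against 200 bp upstream to 710 bp downstream for Cdk9.

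The promoters with the strongest KAP1 peaks differed widely in geometry. At ACSL3, an acyl-CoA synthetase gene of fatty acid metabolism, the KAP1 fold was 10.6. KAP1 ran from 252 bp upstream to 751 bp downstream and its middle lay 107.5 bp past a summit at 142 bp. ZNF264, a zinc finger gene (10.3), had a peak from 117 to 489 bp, with its middle 9 bp past a summit at 294 bp. USP10, a deubiquitinase gene (9.55), was centred as closely, 16 bp past the summit, with a peak from 424 bp upstream to 632 bp downstream. At PDCD7 (10.1) and MTHFD1L, a mitochondrial folate enzyme gene (9.34), the summits were at 105 and 90.0 bp and the KAP1 middle lay 381.5 and 462 bp beyond them. IREB2, which encodes an iron regulator (9.57), had both in the first intron, the summit at 1089 bp and the KAP1 peak from 926 to 1308 bp. POTEH (9.32), which belongs to a family of near-identical genes that may share reads, had both upstream, with the summit 558 bp before the start and KAP1 from 652 to 315 bp before it. FRMD5 (9.19) was the 1 of these 8 with the middle upstream of the summit, by 228.5 bp.

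Among promoters with exactly 1 peak of each factor and a −log10 q of at least 5 for both, most of those with the farthest displacement had wide KAP1 peaks. In a peak that contains the summit the offset is limited by the peak width, so this is partly built in. Members outside these limits can lie farther, such as CDT1, a replication licensing gene, with its summit at 7830 bp and an offset of -5699 bp. At PLEKHN1 the KAP1 peak ran from 8202 bp upstream to 1675 bp downstream around a summit at 448 bp, so that its middle lay 3711.5 bp upstream. RAC3, a small GTPase gene, and SSH3, a phosphatase gene, had KAP1 peaks that began 4047 and 2711 bp upstream of the start. At ARHGDIA and at NOTUM, a Wnt inhibitor gene, the Pol II summit lay far inside the gene, at 2923 and 1961 bp. The KAP1 peak of ARHGDIA ended 689 bp past the start and did not reach its summit, whereas that of NOTUM contained the summit. Downstream, FASN, the fatty acid synthase gene, had a KAP1 peak from 1653 bp upstream to 8839 bp downstream, within a Pol II peak of 22401 bp with its summit at 116 bp. CKB, the brain-type creatine kinase gene, and NPDC1 had KAP1 peaks that ended 5565 and 3341 bp past the start. Isolation covers only 3 kb on each side, and the KAP1 peaks of PLEKHN1, RAC3, FASN, CKB and NPDC1 reached past it. Such peaks can cover starts of other genes, which was not checked. As at ARHGDIA, the KAP1 peak of KLF1, an erythroid transcription factor gene, did not contain the Pol II summit. It ran from 916 to 2901 bp, with the summit at 78.0 bp.

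Immediate early and glycolysis genes had both the Pol II summit and the KAP1 middle farther into the gene than all members, by their medians. The summit was at 285.5 and 482 bp in these lists, against 113 bp over all members. The KAP1 middle was at 615.25 and 789.5 bp, against 258.5 bp. These distances run from the annotated gene start. The lists were not recomputed with the start of the canonical transcript, which gave a median summit at 75 bp over 6659 promoters. Of 32 listed immediate early genes 10 were members, and their median offset was 329.5 bp, against 90.5 bp over all members. The KAP1 middle was upstream of the summit at 2 of 10, against 33.6% of all members, and the median upstream edge lay 89.5 bp past the start. The transcription factor genes JUNB, FOSL1 and SRF had offsets of 1138.5, 480 and 305 bp. FOS, which encodes a partner of Jun proteins in AP-1, had KAP1 from 187 bp upstream to 414 bp downstream and an offset of 63.5 bp. The 2 exceptions were FOSB, with its summit at 1283 bp near the downstream edge of KAP1 at 1398 bp, and SGK1, a kinase gene with an offset of -2.50 bp. MYC, NR4A1, EGR2 and CCN2 had offsets of 958, 138, 354 and 463 bp. Of 17 listed autosomal glycolysis genes 5 were members, with a median offset of 302 bp, 1 middle upstream of the summit and a median upstream edge 105 bp past the start. The glycolytic enzyme genes TPI1, PKM and PFKL had offsets of 307.5, 302 and 695 bp.

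**Figure D5:**
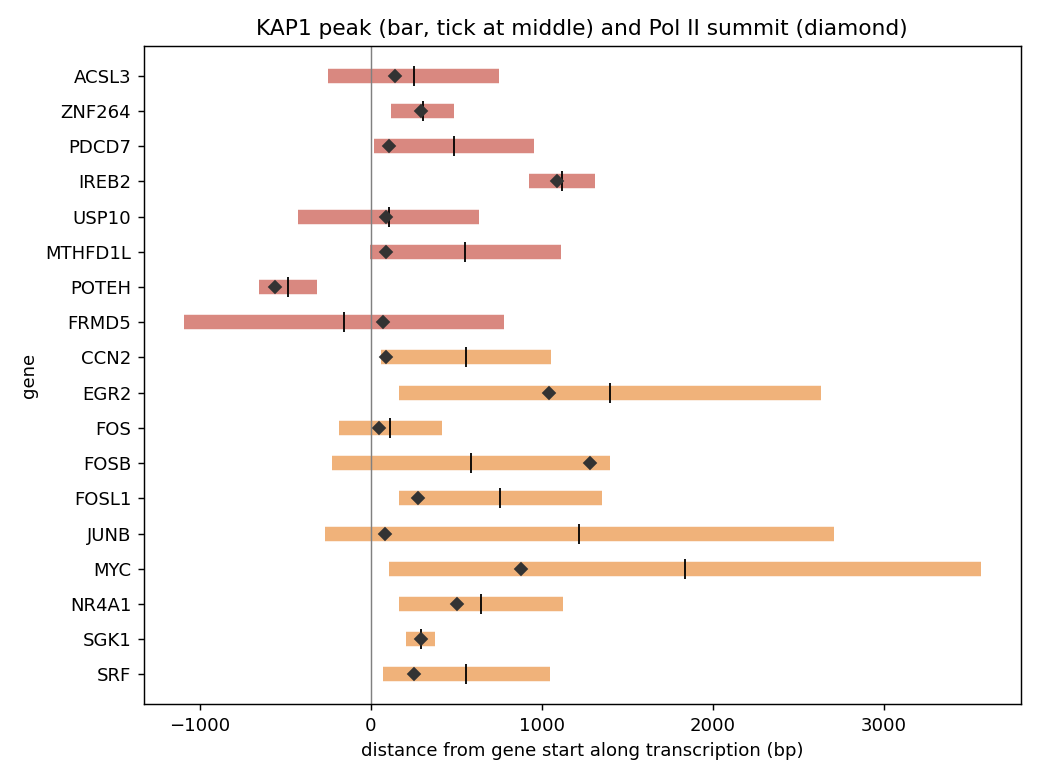
KAP1 peak (bar, with a tick at its middle) and Pol II summit (diamond) in bp from the gene start, at the 8 promoters of highest KAP1 fold (red bars) and the 10 immediate early members (orange bars). The summit lies inside the bar at all 18, and the tick is to the left of the diamond at FRMD5 and FOSB and, hidden behind it at -2.50 bp, at SGK1.

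In the other lists, too, counts are read against the 33.6% of all members with the middle upstream and their median offset of 90.5 bp. Heat shock and chaperone genes had 7 members with 4 middles upstream of the summit and a median offset of -99.0 bp. BAG3, HSPB1 and HSPH1, the members with the strongest KAP1, had offsets of 528, 337 and 285.5 bp, whereas at DNAJB1 the KAP1 peak lay wholly upstream, ending 638 bp before the start. The p53 targets had 9 members with 1 upstream and a median of 93.5 bp, led by FDXR (47.5 bp), AEN (69.5 bp) and GADD45A (599 bp). Elongation and 7SK genes had 10 members with 3 upstream and a median of 97.75 bp, both near the values over all members. ELL and TCEA1, elongation factor genes, had offsets of 198.5 and 202.5 bp, and PPM1G, a phosphatase gene, had 67.0 bp. Cell cycle genes had 13 members with 3 upstream and a median of 130 bp, led by CDC25A (-56.0 bp), MKI67 (130 bp) and MCM3 (12.5 bp). Of the factors' own genes in the rule for named genes, CCNT1 was the isolated one, and it had Pol II with its summit 108 bp upstream of the start and no KAP1 peak.

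Ribosomal protein genes had offsets in both directions. The 14 members had a median offset of 21.5 bp with quartiles of -263.25 and 138 bp, and 5 were upstream (35.7%), near the 33.6% over all members. RPL38, RPS15A and RPS19 had offsets of 25.0, -234 and 121 bp. The 166 members among genes named ZNF had a median offset of 34.75 bp (quartiles -100.5 and 147.5 bp), with 68 upstream (41.0%, against 33.6% over all members), and a median KAP1 width of 629 bp. ZNF501 and ZNF766 lay on opposite sides, at -246 and 362.5 bp. No replication-dependent histone gene was a member, since 11 of 68 were isolated and none of these had both peaks.

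Promoters with a single factor and those near other starts differed in part. At the 802 promoters with Pol II and no KAP1 the summit was at 73.0 bp (64.0 to 88.0), against 113 bp with KAP1, and lay upstream of the start in 29.7% against 19.3%. Their Pol II peaks were weaker and narrower, with a median fold of 10.6 and a median width of 360.5 bp. At the 398 with KAP1 and no Pol II the KAP1 middle was at 204.5 bp (163.5 to 273), and the peak, with a median width of 363 bp, covered the start at 36.7%. KAP1 was at 88.2% of isolated promoters with Pol II, and at 88.1% of all autosomal coding promoters with Pol II. At the 6163 coding promoters with another start within 3 kb and both peaks, the offset was 55.0 bp (47.0 to 63.0) and the upstream share was 40.5% (39.3 to 41.7).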

How the data were processed

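ChIP-seq peak lists of HCT116 cells were used as deposited. Bowtie 1.1, MACS2 and build hg19 are named in the submitters' processing notes. The MACS2 version, control, treatment of duplicates and read depth were not given in the sources used here, so the precision from depth is unknown. The deposited fold in column 7 is a ratio over background, columns 8 and 9 hold the deposited −log10 of p and q, and the summit is column 2 plus column 10 of the Pol II list. Genes came from GENCODE release 44 on GRCh37, whose chromosome ends no peak passed. Of several peaks in a window the one of highest fold was taken. KAP1 width, edge and middle come from the broad peak layout and the summit from the narrow one. Analysis used Python 3.11.15, pandas 2.3.3, scipy 1.17.1 and pysam 0.24.0, and the placement code was tested on simulated data. No p-value is given, since there is 1 library per antibody.

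Named genes were the 8 of highest KAP1 fold and the 5 most displaced on each side, among promoters with 1 peak of each factor and a −log10 q of at least 5 for both, for each gene list its 3 members with the strongest KAP1, and isolated genes of the factors. DNAJB1, CDT1 and the immediate early genes other than SRF, FOSL1 and JUNB were named after their values were seen. A gene and some sequences that the rules select are not reported here. The members and lists were chosen with earlier results of these data known. The comparison with Pol II peaks inside genes, and that of the 5 lists at equal length, were added after seeing the data. Inside genes, the KAP1 peak of highest fold that overlapped the Pol II peak was taken, and 1 KAP1 peak could serve several Pol II peaks. Alternatives concerned the peak threshold, list length, window, isolation, peak choice, gene start and the Pol II position.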

Additional observations from a re-analysis of the deposited data

How the results depend on the processing

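Over 12 settings and 58 recomputed values no distance changed sign and no share crossed 50%. Of these values 23 stayed within the 95% interval of the main value and 35 moved outside it. The median offset ranged from 36.0 to 117.5 bp and the upstream share from 26.2 to 36.3%. With −log10 q of at least 5 in both lists (2248 promoters), the KAP1 middle was at 272.5 bp, the offset 116.25 bp, the upstream share 27.4% and the share of KAP1 peaks containing the summit 96.0%. With the 20000 peaks of highest −log10 p (3170 promoters), the summit was at 106 bp, the KAP1 middle at 269.25 bp, the offset 115 bp and the shares 27.6% and 95.6%. A window of 500 bp gave 104, 245.5 and 99.0 bp with shares of 31.9% and 94.7%. Taking the peak nearest to the start gave a summit at 100.0 bp, an offset of 110.0 bp and shares of 30.4% and 92.1%. With exactly 1 peak of each factor, the KAP1 middle was at 246.5 bp with shares of 31.9% and 95.1%. Genes whose coding transcripts all start within 100 bp gave 91.0, 209.5 and 82.75 bp, and the canonical start gave a summit at 75 bp and a KAP1 middle at 189 bp. The Pol II peak middle in place of the summit gave 190.5 bp, an offset of 36.0 bp and shares of 36.3% and 92.6%. With the summit within 300 bp of the start the values were 82.0, 204.5 and 117.5 bp and the upstream share 26.2%, and the outermost edges of all KAP1 peaks contained 94.4% of summits. At equal list length, chosen after seeing the data, KAP1 middles lay 13, 28.0 and 14.5 bp past those of Larp7, Hexim1 and Cdk9, and 16.5, 33.5 and 15.5 bp with −log10 q of at least 5. The cause of these changes was not tested. No analysis across replicates was possible because each antibody has 1 library. Edges depend on depth and caller settings that are unknown here, and a broad peak's middle need not be where KAP1 signal is highest.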
